A study of Homo sapiens with 54 samples.

Results

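Compound Kushen Injection (CKI) is a mixture of natural compounds extracted from herbs, and oxymatrine is one of its main alkaloids. The 3 libraries described here, N-Omt (labelled N_Omt), are MDA-MB-231 cells given CKI from which oxymatrine had been removed, and they are 3 of the 54 libraries of the series. They were compared with the 9 libraries of the other mixtures from which a single component had been removed, which lack macrozamin (N-Mac), N-methylcytisine (N-Nme) or trifolirhizin (N-Tri), with 3 libraries each. Libraries were assigned to these groups by their labels and column names. What all 4 mixtures share, such as fractionation and reconstitution of CKI, is set aside by this comparison.

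MDA-MB-231 is a widely used human breast cancer cell line without estrogen receptor. All 12 libraries come from batch 2 and from cells sampled after 48 h, and every mixture was given at the dose that matches 2 mg/ml of CKI. The same batch holds 3 libraries with whole CKI (2 mg/ml) and 3 of untreated cells (UT), which serve below as a background. All groups are the same unmodified line, and the labels call the 3 samples of a group biological replicates without naming their cultures, so p-values measure the spread between these libraries. The question is which transcripts respond to the removal of oxymatrine in a way that the removal of another single component does not give.

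Oxymatrine is the N-oxide of matrine, and both are quinolizidine alkaloids of Sophora roots. N-methylcytisine is another alkaloid of these plants, trifolirhizin is a glucoside of a pterocarpan, and macrozamin is a glycoside. In a proliferating cell line, genes of DNA replication are transcribed mainly towards the S phase under E2F factors. Genes of mitosis are transcribed later, towards G2 and M, from promoters that often carry a CHR element and CCAAT boxes. When cells leave the cycle, p21 and related inhibitors hold the cyclin-dependent kinases down and repressor complexes silence both groups.

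Total counts of the 12 libraries were between 17673537 and 24603876, with a median of 22897146 in N-Omt and 22072815 in the 9 reference libraries. Replicates of a group had Pearson correlations of at least 0.992 on the log2 CPM scale over 9786 genes. The counts of every replicate pair differed by more than sampling noise, with a chi-square per degree of freedom of at least 1.99. This value was 5.06 to 14.4 in N-Nme and 3.45 to 6.48 in N-Mac. In N-Omt it was 2.11 to 3.28 and in N-Tri 1.99 to 2.73. The libraries of N-Omt correlated with those of the other 3 mixtures at 0.942 to 0.963, while libraries of different reference groups correlated with each other at 0.98 to 0.995. The 12 markers fixed for MDA-MB-231 cells were all detected, with a summed level of 5780 to 5820 CPM in N-Omt and 4940 to 5380 CPM in the reference libraries (CPM, counts scaled to a common library size after TMM normalization). Of the 10 blood cell markers, 9 were below a mean of 1 CPM in N-Omt, and their summed level was 4.09 to 5.06 CPM against 1.1 to 2.66 CPM in the reference libraries. The 10 fibroblast markers summed to 28.9 to 38.5 CPM in N-Omt and 14.8 to 31.5 CPM in the reference libraries, and 6 of them were below a mean of 1 CPM in both.

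Without oxymatrine, cells carried fewer transcripts of the machinery of cell division and of endoplasmic reticulum chaperones than with the other 3 single-removal mixtures, and more transcripts of cholesterol synthesis, of aldo-keto reductases and of the cell cycle inhibitors p21 and p57. Of 14803 genes tested, 9903 (66.9%) were differentially expressed (DE) between N-Omt and the mean of the other 3 groups at an adjusted p-value under 0.05 in the quasi-likelihood test of edgeR, with p-values adjusted after Benjamini and Hochberg. Of these, 4874 were higher (32.9% of the genes tested) and 5029 lower (34%) in N-Omt. Most differences were small, and the median absolute log2 fold change over all 14803 genes tested, called or not, was 0.292. By size, 540 of the higher genes and 667 of the lower ones changed by 1 or more on the log2 scale, and 76 and 100 by 2 or more. Because replicates were close (biological coefficient of variation 0.048), small differences passed the test, and the counts below are read against these shares.

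Each reference group taken alone gave a similar number. Against N-Mac, 4117 genes were higher in N-Omt (27.8%) and 4630 lower (31.3%). Against N-Nme the numbers were 4661 (31.5%) and 4883 (33%), and against N-Tri 4377 (29.6%) and 4603 (31.1%). The 3 comparisons share the N-Omt libraries. Called in all of them and in the mean comparison, with 1 direction throughout, were 6048 genes, 2815 higher and 3233 lower. In 3076 genes (20.8%) all 3 N-Omt libraries lay above all 9 reference libraries, and in 3404 (23%) all lay below.

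The same contrast was formed for each of the other groups, always 1 group against the mean of the other 3. It gave 5763 DE genes for N-Mac (38.9%), 6627 for N-Nme (44.8%) and 5724 for N-Tri (38.7%). For changes of 1 or more on the log2 scale the numbers were 181 for N-Mac, 317 for N-Nme and 68 for N-Tri, against 1207 for N-Omt. N-Omt is itself part of the reference in these 3 contrasts. The study measured more oxymatrine in CKI than macrozamin, N-methylcytisine or trifolirhizin, so the removals took out unlike amounts. The part played by the amount removed was not tested. The reference groups also differed among themselves, in 7171 genes (48.4%) in a test of all 3, and with a log2 fold change of at least 1 in 225 genes between N-Mac and N-Nme, 157 between N-Mac and N-Tri and 53 between N-Nme and N-Tri.

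Genes were ranked where they averaged 10 CPM or more and passed the test, with the same sign, in the mean comparison and against each group. Of these, the 12 that fell most all serve DNA synthesis, chromosomes or division. SHCBP1, which acts at the midbody in cytokinesis, fell most. It was at 1.51, 1.78 and 1.47 CPM in the N-Omt libraries and at 15.5 to 25.7 (median 19.9) CPM in the 9 reference libraries, a log2 fold change of -3.67 ± 0.12 (SE, adjusted p = 9.29e-21). RRM2, a subunit of ribonucleotide reductase, was at 4.31, 4.25 and 3.74 CPM without oxymatrine and at 30 to 41.8 (median 38.9) CPM in the reference libraries (-3.22 ± 0.090, adjusted p = 4.13e-22). MKI67, which encodes the proliferation marker Ki-67, was at 5.47, 6.54 and 6.11 CPM against 37 to 63.2 (median 49.6) CPM (-3.04 ± 0.074, adjusted p = 2.77e-23). The other 9, KIF2C, CIT, TOP2A, CDK1, BRCA1, ASPM, DIAPH3, PBK and ASF1B, had log2 fold changes between -3.00 for KIF2C and -2.69 for ASF1B. In none of the 12 did an N-Omt library reach the level of any reference library.

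The 12 genes that rose most under the same rule are of mixed function. KRT81, a hair keratin of high sequence similarity to other keratins, was at 49.1, 48.1 and 50.9 CPM in N-Omt and at 7.49 to 14.8 (median 10.6) CPM in the reference libraries, a log2 fold change of 2.17 ± 0.057 (SE, adjusted p = 9.32e-23). ANGPTL4, a secreted inhibitor of lipoprotein lipase, was at 36.2, 33.2 and 34.4 CPM against 6.25 to 11.6 (median 7.22) CPM (2.13 ± 0.063, adjusted p = 1.79e-21). AKR1C1, an aldo-keto reductase that reduces steroids and carbonyls, was at 186, 193 and 184 CPM against 38.5 to 81.7 (median 46.8) CPM (1.79 ± 0.041, adjusted p = 1.29e-23). All 3 lay above every reference library. Among the others were PRSS22, AOC2, ANGPTL2, RSAD2, CRISPLD2, IFITM10, VSIR and IL1B, with log2 fold changes from 1.91 for PRSS22 to 1.66 for IL1B. The reads of KRT81 and of AKR1C1 may be shared with near-identical relatives, so how they were split between copies is uncertain.

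**Figure D1:**
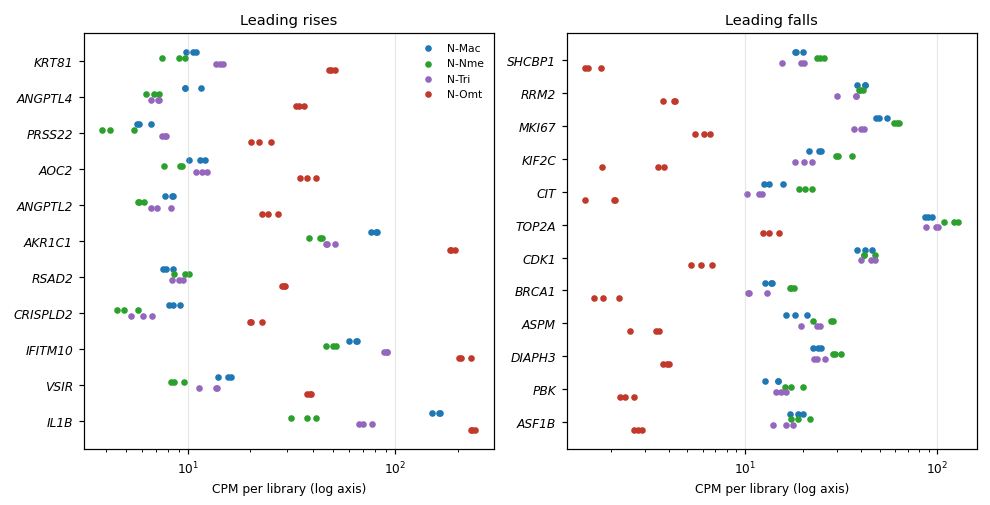
Levels in CPM (log axis) of leading genes that rose (left) and fell (right) most in N-Omt, with 1 point per library (3 libraries in each of N-Mac, N-Nme, N-Tri and N-Omt). For every gene shown the 3 N-Omt points lie outside the range of the 9 reference points, for example TOP2A at 14.9, 13.3 and 12.4 CPM against 86.1 to 128 (median 98.5) CPM.

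Promoters of 4 of the genes that fell are shown because they carry the short elements by which transcription is tied to the cycle. Each window runs from 250 bases before to 50 bases after the start of the gene in RefSeq's annotation of GRCh38.p14, while the counts were made on hg19. Capitals mark 3 kinds of letters on either strand, the CHR element TTTGAA, the CCAAT box CCAAT, and an E2F site written as TTTCCCGC, TTTGGCGC, TTTCGCGC or TTTGGCGG. A match is only a match of letters. The first 3 are mitotic genes: CDK1 (chr10:60778081-60778380, plus strand), the kinase that starts mitosis, TOP2A (chr17:40417847-40418146, minus strand), the topoisomerase that untangles chromosomes, and SHCBP1 (chr16:46621330-46621629, minus strand). MCM10 (chr10:13161308-13161607, plus strand), which loads replication factors at origins, has an E2F match and no CHR match.
CDK1: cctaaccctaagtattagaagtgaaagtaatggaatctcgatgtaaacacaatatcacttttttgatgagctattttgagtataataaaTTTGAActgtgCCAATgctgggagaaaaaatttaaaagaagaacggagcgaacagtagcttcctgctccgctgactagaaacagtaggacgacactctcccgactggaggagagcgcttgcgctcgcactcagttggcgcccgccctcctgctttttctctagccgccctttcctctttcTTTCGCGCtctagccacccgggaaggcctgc
TOP2A: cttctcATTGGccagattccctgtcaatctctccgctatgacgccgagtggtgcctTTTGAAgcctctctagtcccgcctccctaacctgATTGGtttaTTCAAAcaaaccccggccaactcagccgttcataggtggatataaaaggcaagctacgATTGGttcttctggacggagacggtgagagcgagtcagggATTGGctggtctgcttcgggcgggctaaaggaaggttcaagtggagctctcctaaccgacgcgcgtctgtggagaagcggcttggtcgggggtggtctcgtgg
SHCBP1: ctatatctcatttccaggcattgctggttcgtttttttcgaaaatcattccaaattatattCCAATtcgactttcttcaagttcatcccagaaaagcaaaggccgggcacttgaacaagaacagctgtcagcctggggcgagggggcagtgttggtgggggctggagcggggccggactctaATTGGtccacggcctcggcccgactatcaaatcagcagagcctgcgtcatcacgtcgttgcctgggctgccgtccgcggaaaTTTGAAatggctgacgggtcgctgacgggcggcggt
MCM10: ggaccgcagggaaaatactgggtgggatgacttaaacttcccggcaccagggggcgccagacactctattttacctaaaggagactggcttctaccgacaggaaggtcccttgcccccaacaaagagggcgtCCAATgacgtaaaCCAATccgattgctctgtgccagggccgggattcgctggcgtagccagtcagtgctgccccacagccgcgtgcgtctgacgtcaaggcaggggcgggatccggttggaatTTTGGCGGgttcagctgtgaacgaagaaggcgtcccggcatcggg

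All 40 members of the mitosis list were tested, and all 40 were lower in N-Omt than in the other single removals, where 34% of all genes were lower. Their median log2 fold change was -1.60, against -0.0046 over all genes tested, and 32 of them fell by at least 1 on the log2 scale. In 39 of them the 3 N-Omt libraries lay below all 9 reference libraries, the exception being CDC20 with libraries at 20.3, 18.8 and 19.7 CPM against 19.6 to 35.1 (median 23.1) CPM. In bulk RNA, fewer cells in a phase of the cycle and less RNA per cell cannot be told apart.

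Regulators of mitotic entry were among the lowest. CDK1 was at 5.25, 5.89 and 6.74 CPM in N-Omt and at 38.1 to 47.6 (median 42.2) CPM in the reference libraries, a log2 fold change of -2.86 ± 0.088 (SE, adjusted p = 4.63e-21). CDC25C, the phosphatase that activates CDK1, changed by -3.14 ± 0.20 and was near its detection limit in N-Omt (0.756, 0.346 and 0.632 CPM). The cyclins that bind CDK1 had log2 fold changes of -2.05 for CCNA2, -1.63 for CCNB2 and -1.33 for CCNB1. The mitotic kinases spread widely. AURKB, of the chromosomal passenger complex, was at 6.27, 5.42 and 4.9 CPM against 18.1 to 30.4 (median 22.9) CPM (-2.07 ± 0.12), BUB1B, of the spindle checkpoint, changed by -2.25 ± 0.12, and PLK1 by -1.25 ± 0.10, while AURKA, of the spindle poles, changed by -0.80 ± 0.062.

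Structural parts of the mitotic apparatus fell as well. TOP2A was at 14.9, 13.3 and 12.4 CPM against 86.1 to 128 (median 98.5) CPM, a log2 fold change of -2.89 ± 0.070, and KIF2C, a kinesin that depolymerizes microtubules at centromeres, was at 3.78, 3.51 and 1.79 CPM against 18.2 to 36 (median 24.2) CPM (-3.00 ± 0.12). The kinetochore subunits NUF2 and NDC80 changed by -2.60 ± 0.14 and -2.48 ± 0.14. NCAPG and NCAPH of condensin, which compacts chromosomes, changed by -2.62 ± 0.097 and -1.84 ± 0.095. The smallest falls of the list were those of FOXM1 (-0.44 ± 0.056), the transcription factor that drives many of these genes, of CDC20 (-0.31 ± 0.070), and of ECT2 (-0.28 ± 0.046), which positions the cleavage furrow. Adjusted p-values over the list, from edgeR's quasi-likelihood test, were at most 2.77e-04, that of CDC20. The CDC20 call was lost with N-Nme left out of the reference (-0.14) and with the 9 reference libraries as 1 group (-0.33).

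The mitosis genes were also compared with each reference group alone. Against N-Mac 39 of 40 were lower, against N-Nme 40 and against N-Tri 39, with median log2 fold changes of -1.49, -1.83 and -1.46. None was higher in any of them. In all comparisons 39 members were lower, and 38 also differed among the reference groups themselves. For MKI67 the mean levels were 50.9 ± 3.56 CPM in N-Mac (SD, n = 3), 61.5 ± 1.87 in N-Nme and 39.3 ± 2.18 in N-Tri, against 6.04 ± 0.539 in N-Omt.

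Of the 40 members of the DNA replication list, 31 were lower, 1 was higher and 8 did not pass the test, and the median log2 fold change was -0.88. The list is given here by role. Among the factors that fire origins, MCM10 was at 0.8, 0.866 and 0.527 CPM against 6.37 to 10.1 (median 9.49) CPM, a log2 fold change of -3.57 ± 0.15 (SE, adjusted p = 5.55e-18), and GINS2 and CDC45, parts of the active helicase, changed by -2.59 ± 0.19 and -2.26 ± 0.12. Enzymes of nucleotide supply fell with them. RRM2 changed by -3.22 ± 0.090, TYMS, the thymidylate synthase, was at 4.89, 4.16 and 4.21 CPM against 11 to 16.1 (median 13.4) CPM (-1.60 ± 0.099), and TK1 changed by -1.55 ± 0.079.

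The subunits of the MCM helicase ring were less uniform. MCM6 and MCM5 fell, with log2 fold changes of -0.88 and -0.55, but MCM3, MCM7, MCM2 and MCM4 did not pass the test, with log2 fold changes of -0.090 ± 0.049, -0.082 ± 0.050, -0.071 ± 0.056 and -0.0022 ± 0.052. For MCM4 the N-Omt libraries were at 39.1, 38.5 and 38.4 CPM and the reference libraries at 30.8 to 48.5 (median 40.6) CPM, so the groups overlapped. LIG1, ORC1, RFC2 and E2F2 did not pass the test either, with log2 fold changes of -0.19 ± 0.091, -0.19 ± 0.11, 0.058 ± 0.070 and -0.50 ± 0.42. PCNA, the sliding clamp, fell (-0.49), and E2F1, the transcription factor of this group, was the member that rose (0.14 ± 0.052, adjusted p = 0.0194 from edgeR's test). The E2F1 call was lost without N-Omt replicate 1 (0.12), without N-Omt replicate 3 (0.13) and under 4 other settings.

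The E2F1 and MCM values depended on the reference group. Against N-Mac E2F1 changed by -0.14 (adjusted p = 0.0611), against N-Nme by 0.32 (adjusted p = 8.19e-05) and against N-Tri by 0.23 (adjusted p = 0.00242). MCM3 was lower than in N-Mac (-0.43, adjusted p = 4.57e-07), and against N-Tri its log2 fold change was 0.21 (adjusted p = 0.00378). MCM10 fell against all of them, with log2 fold changes of -3.71, -3.71 and -3.29 for N-Mac, N-Nme and N-Tri. In all comparisons 29 members of the list were lower.

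**Figure D2:**
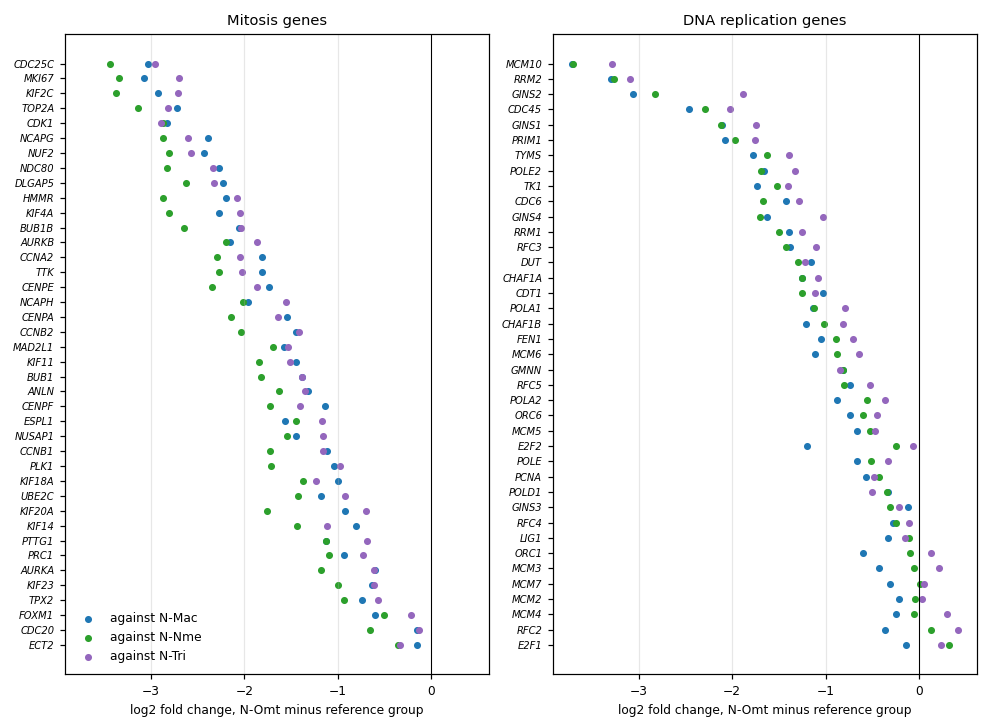
Log2 fold changes of the 40 mitosis genes (left) and of the DNA replication genes (right) in N-Omt against N-Mac, N-Nme and N-Tri, with 1 point per reference group and genes ordered by the mean comparison. Every mitosis point lies left of 0, whereas the replication genes run from MCM10 at -3.57 in the mean comparison to MCM and RFC subunits and E2F1 around 0.

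The same letters were counted in the promoters of both lists. A CHR element was found in 25 of the 35 mitosis genes with a window (71.4%) and in 1 of 36 DNA replication genes (2.78%), against 9.69% of the 11585 tested genes with a window. An E2F site was found in 22 of the 36 replication genes (61.1%) and 5 of the mitosis genes (14.3%), against 5.44%. CCAAT boxes stood in 77.1% and 52.8% of them, against 36.2%. Over all 1123 genes with a CHR match, the median log2 fold change was -0.0775 and 41.1% were called lower, against -0.00654 and 34.8% of the genes without. Over the 630 genes with an E2F match the values were -0.0851 and 42.9%, against -0.00784 and 34.9% without. These shares are descriptions of letters in a window, and genes with a match moved in both directions.

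Among the G1 cyclins and CDK inhibitors, 8 of 18 rose and 6 fell, against 32.9% higher and 34% lower over all genes tested. CDKN1A, which encodes the inhibitor p21, was at 1270, 1198 and 1196 CPM in N-Omt and at 548 to 729.5 (median 630) CPM in the reference libraries, a log2 fold change of 0.93 ± 0.042 (SE, adjusted p = 1.91e-17). CDKN1C, which encodes the related p57, was at 27.4, 24 and 32.3 CPM against 9.05 to 11.4 (median 9.57) CPM (1.53 ± 0.074, adjusted p = 1.08e-16). Both lay above every reference library, and CDKN1B, the third of this family, did not pass the test (-0.045 ± 0.049). CCND2, a D-type cyclin, rose (1.10 ± 0.074), and CCND1 did not pass the test (-0.016 ± 0.037). CCNE2, which drives entry into S phase, was at 1.11, 0.91 and 0.685 CPM against 3.01 to 5.14 (median 3.77) CPM (-2.09 ± 0.18), and the phosphatase CDC25A and the pocket protein RBL1 changed by -1.50 ± 0.12 and -1.27 ± 0.080. RBL2, a pocket protein of the repressor complex of resting cells, was lower too (-0.91 ± 0.061).

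Histone genes moved the other way. Of 27 replication-dependent histones in the list, 11 had enough counts in these libraries, which were selected with oligo(dT), of which 7 rose and none fell, with a median log2 fold change of 1.01. HIST1H1C, a linker histone, was at 345, 308 and 291 CPM against 63.4 to 166 (median 102) CPM (1.61 ± 0.063), and HIST1H2BK was at 146, 144 and 150 CPM against 55.3 to 73.8 (median 60.7) CPM (1.23 ± 0.040). Counts of these genes reflect transcripts with a poly(A) tail, which replication-dependent histone mRNAs normally lack, and their copies share sequence. The summed level of the list was 537 to 587 CPM in N-Omt, 169 to 284 CPM in the reference libraries and 277 to 288 CPM with whole CKI.

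Chaperones of the endoplasmic reticulum fold secreted and membrane proteins and are induced by the unfolded protein response. Of 21 genes of the list, which holds chaperones and the regulators of the unfolded protein response, 20 were lower and 1 was higher in N-Omt, with a median log2 fold change of -0.63. HSPA5, the main chaperone of the compartment, was at 3240, 3318 and 3310 CPM in N-Omt and at 5909 to 8428 (median 6451) CPM in the reference libraries (-1.05 ± 0.044, adjusted p = 5.08e-18). HSP90B1 was at 985, 1026 and 1023 CPM against 1849 to 3273 (median 2357) CPM (-1.25 ± 0.044), and SDF2L1, a cofactor of HSPA5, was at 24.2, 20.9 and 25.8 CPM against 43.4 to 77.1 (median 57.1) CPM (-1.28 ± 0.062). All 3 lay below every reference library.

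Regulators of the same response moved both ways. XBP1 (-0.16) and ATF6 (-0.49) were lower, while ERN1, the sensor that splices XBP1 mRNA, was the member that rose (0.31 ± 0.048). The median of the list was -0.82 against N-Nme, -0.46 against N-Mac and -0.54 against N-Tri. For HSPA5 the mean was 5965 ± 66.3 CPM in N-Mac, 8291 ± 188 in N-Nme and 6436 ± 272 in N-Tri, each above the 3289 ± 42.4 of N-Omt (SD, n = 3). Genes of the ATF4 and CHOP branch, which raises amino acid supply under stress, moved in both directions. Beside 32.9% and 34% of all genes, 12 of these 24 were higher and 7 lower. Among them SLC3A2, a subunit of amino acid exchangers, was at 1125, 1094 and 1133 CPM against 499.9 to 809 (median 631) CPM (0.81 ± 0.041), and SHMT2, a mitochondrial enzyme of serine use, fell (-0.71 ± 0.057).

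Other chaperones and metal proteins also changed, beside 32.9% of all genes higher and 34% lower. HSPA1A and HSPA1B, the near-identical copies of inducible HSP70, fell, with log2 fold changes of -1.10 and -1.07, and 9 of 21 heat shock chaperones fell and 6 rose. MT1E and MT1X, metallothioneins whose copies share reads, changed by -1.27 ± 0.092 and -0.98 ± 0.095, while the zinc exporter SLC30A1 rose from 24.1 to 30.1 (median 27.2) CPM in the reference libraries to 53.3, 58.5 and 57.6 CPM (1.07 ± 0.049). Of the 7 metallothionein and zinc genes tested, 3 fell and 2 rose.

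Of 26 genes of cholesterol synthesis and uptake, 21 were higher in N-Omt and 3 lower, with a median log2 fold change of 0.40, against 32.9% of all genes higher. EBP, a sterol isomerase, rose most, from 47.6 to 118 (median 66.4) CPM in the reference libraries to 203, 192 and 179 CPM (1.39 ± 0.055, adjusted p = 1.27e-18). HMGCS1, which makes the precursor of mevalonate, was at 176, 189 and 181 CPM against 93.4 to 117 (median 111) CPM (0.76 ± 0.040). Both lay above every reference library. MVK and MSMO1, enzymes of the same pathway, rose by 1.01 and 0.86. TM7SF2, STARD4 and PMVK were lower, with log2 fold changes of -0.46, -0.25 and -0.19, and the call of PMVK was lost without N-Omt replicate 1 (-0.21) or 3 (-0.12). SREBF2 itself, the factor of this pathway, rose slightly (0.21 ± 0.041), with groups that overlapped (223, 206 and 208 against 164 to 211 (median 184) CPM).

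The synthesis of fatty acids followed with smaller changes, as 8 of 13 genes rose and 1 fell, FASN by 0.41 ± 0.047. ABCG1 and APOE, targets of the liver X receptors, rose from low levels. ABCG1, a sterol exporter, was at 8.14, 8.01 and 7.85 CPM against 1.2 to 3.53 (median 1.67) CPM (2.05 ± 0.12), and APOE at 5.65, 5.85 and 5.32 CPM against 1.55 to 2.83 (median 1.99) CPM (1.43 ± 0.12). Of the 9 genes of that list 5 rose and 2 fell, where 32.9% and 34% of all genes did so. Of 16 PPAR targets 9 rose and 6 fell, with PDK4 at 0.96 ± 0.086 and HADHA at -0.80 ± 0.052.

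Enzymes that handle reactive compounds rose in part. Of 26 NRF2 targets, 16 rose, 4 fell and 6 did not pass the test, with a median log2 fold change of 0.21. Higher and lower shares over all genes tested were 32.9% and 34%. The largest rises were those of aldo-keto reductases. AKR1B1 was at 1691, 1600 and 1578 CPM against 412 to 769.7 (median 469.8) CPM (1.61 ± 0.041, adjusted p = 6.29e-23 in edgeR's test). AKR1C2 and AKR1C3, relatives of AKR1C1 with high sequence similarity, changed by 2.04 ± 0.071 and 0.87 ± 0.040. HMOX1, which degrades heme, rose by 0.94, and FTH1, the ferritin heavy chain, by 0.77. NFE2L2, which encodes NRF2, did not pass the test (0.000097 ± 0.038), nor did SLC7A11 (0.0067 ± 0.043), and GCLC, OSGIN1, SRXN1 and FTL were lower, with log2 fold changes of -0.15, -0.50, -0.32 and -0.22, the last of which lost its call without N-Omt replicate 3 (-0.17).

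Targets of the aryl hydrocarbon receptor gave 5 rises and 1 fall among 8 genes tested, against 32.9% and 34% over all genes. CYP1A1, the classical target, was at 12.1, 11.7 and 11.7 CPM in N-Omt, and its mean was 10 ± 0.864 CPM in N-Mac, 3.85 ± 0.585 in N-Nme and 5.55 ± 0.884 in N-Tri (SD, n = 3). Against N-Mac its log2 fold change of 0.24 had an adjusted p of 0.0524 in edgeR's quasi-likelihood test, whereas the mean comparison gave 0.99 ± 0.090. AHRR, the repressor of the receptor, rose against each group, by 1.24, 1.23 and 1.23. CYP1B1 was lower (-0.40 ± 0.041). With whole CKI, CYP1A1 was at 73 ± 3.96 CPM, above all 4 mixtures.

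Secreted cytokines and chemokines moved in both directions. In N-Omt 8 of 24 tested genes were higher and 9 lower, near the 32.9% and 34% of all genes. The neutrophil chemokines of the CXC family were lower. CXCL8 was at 686, 730 and 708 CPM in N-Omt and at 794 to 2380 (median 1230) CPM in the reference libraries (-0.94 ± 0.048, adjusted p = 4.90e-16), CXCL2 at 35.5, 34.7 and 36 CPM against 52.9 to 154 (median 80.8) CPM (-1.35 ± 0.062), and CXCL1 changed by -0.92 ± 0.066. IL11, a cytokine of the IL6 family, was at 29.7, 31.6 and 31.6 CPM against 56.2 to 98.8 (median 73.8) CPM (-1.26 ± 0.055). IL1B, the main inflammatory interleukin of its family, rose instead, to 243, 235 and 232 CPM from 31.5 to 165 (median 69.9) CPM (1.66 ± 0.050, adjusted p = 2.31e-21), as did CCL26 (1.52 ± 0.12) and LIF (0.50 ± 0.047).

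The reference groups were far apart in these genes. CXCL8 was at 2309 ± 62.1 CPM in N-Mac, 843 ± 42.8 in N-Nme and 1277 ± 105 in N-Tri (SD, n = 3), with log2 fold changes of -1.71 against N-Mac and -0.25 against N-Nme. IL1B was at 159 ± 7.85, 36.9 ± 5.09 and 71.5 ± 5.36 CPM in the same order. For IL6 the direction itself differed, since N-Omt (107, 106 and 99.8 CPM) was lower than N-Mac (179.6 ± 3.41 CPM) and higher than N-Nme (37.6 ± 2.62 CPM) and N-Tri (64 ± 3.38 CPM). CSF2 had the same pattern, with log2 fold changes of -0.55, 1.22 and 0.78 against N-Mac, N-Nme and N-Tri. The receptors and signal genes of these ligands gave 12 rises and 11 falls among 34, near the shares over all genes. TNFRSF1B, a TNF receptor, rose most among them (1.46 ± 0.055). For all genes tested these shares were 32.9% and 34%. In the NF-kB list 6 of 23 rose and 9 fell, BIRC3 by -1.06 ± 0.052 and ICAM1 by -0.64 ± 0.050.

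**Figure D3:**
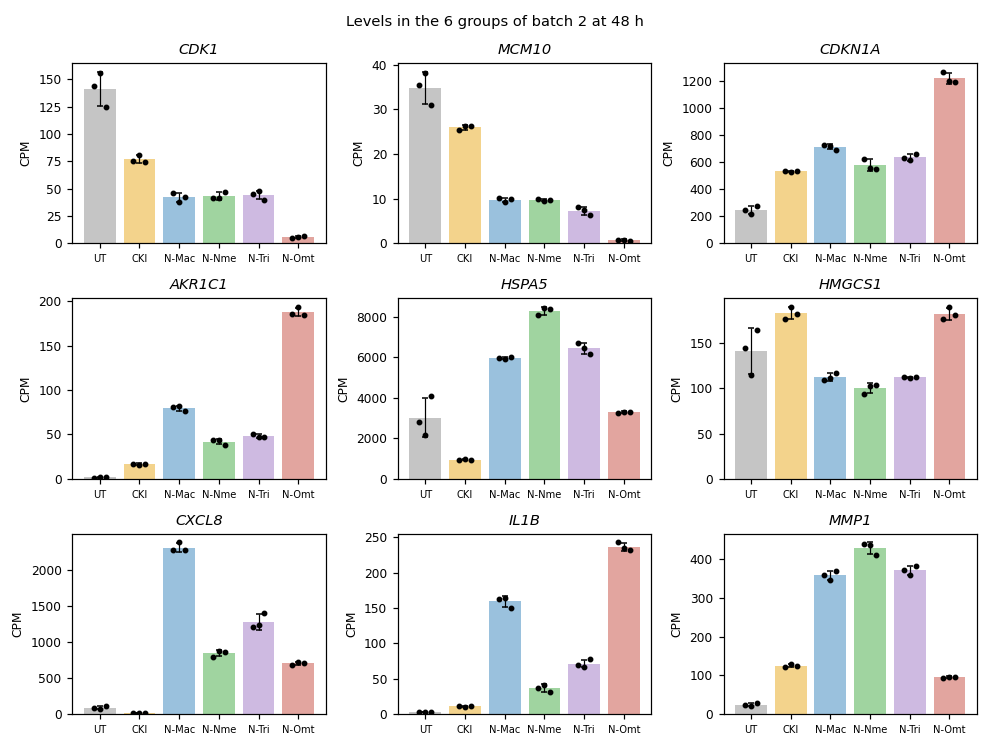
Levels in CPM of 9 genes in the 6 groups of batch 2 at 48 h, with bars at the mean of 3 libraries, error bars of 1 SD and a point for each library. CDK1 and MCM10 descend from untreated cells over CKI and the 3 reference mixtures to N-Omt, CDKN1A and AKR1C1 are highest in N-Omt, and CXCL8 runs from 21.5 ± 1.55 CPM with CKI to 2309 ± 62.1 CPM in N-Mac.

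Interferon-stimulated genes were higher in 18 of 35 cases and lower in 8, against 32.9% and 34% of all genes. RSAD2, which encodes the antiviral protein viperin, was at 29.4, 29.1 and 28.3 CPM against 7.55 to 10.1 (median 8.58) CPM (1.73 ± 0.062, adjusted p = 1.65e-19), and MX1 at 37.3, 36.3 and 33.9 CPM against 15.7 to 18 (median 17.5) CPM (1.07 ± 0.052). OASL and IFIT1 rose by 0.98 and 0.90. BST2 (-0.46 ± 0.070) and XAF1 (-0.79 ± 0.095) were lower, and IRF9 and IRF7 did not pass the test (0.074 ± 0.069 and 0.14 ± 0.082). Among 15 MHC class I genes 7 rose and 1 fell.

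Early response genes rose more often than they fell, in 13 against 4 of 22, where 32.9% and 34% of all genes did so. The split depended on the reference group. Against N-Mac 12 rose and 5 fell, against N-Nme 17 and 2, and against N-Tri 8 and 5. In all comparisons 7 were higher and 1 was lower, and 18 differed among the reference groups. FOSB and FOS, partners in the AP-1 dimer, were at 20.1, 20.4 and 19.5 CPM against 2.91 to 8.13 (median 4.77) CPM (1.96 ± 0.10) and at 91.1, 87.6 and 88 CPM against 12.6 to 59.4 (median 26.8) CPM (1.58 ± 0.12), and KLF4 rose by 0.87. EGR1, usually induced with them, was lower, at 61.3, 57 and 65.3 CPM against 91.4 to 231 (median 112) CPM (-1.24 ± 0.14). Of 17 genes of the ERK output, 12 rose and 2 fell, led by EPHA4 (0.94 ± 0.076) and DUSP7 (0.74 ± 0.050).

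Of 35 genes of the TGF-beta and BMP pathways, 20 rose and 5 fell, against 32.9% and 34% of all genes. Inhibitors of differentiation that respond to BMP rose from low levels, with ID2 at 6.63, 6.71 and 6.11 CPM against 0.834 to 1.56 (median 1.33) CPM (2.45 ± 0.13, adjusted p = 1.66e-15) and ID1 at 10.5, 11.7 and 11.5 CPM against 4.18 to 5.83 (median 4.53) CPM (1.22 ± 0.092). The ligand BMP4 was at 43.6, 47.6 and 44 CPM against 21.5 to 26.5 (median 24.6) CPM (0.90 ± 0.049), and BAMBI, a decoy receptor, rose by 1.20. INHBA, a subunit of activin, and SMAD1, a signal carrier of BMP receptors, fell (-0.89 and -0.82).

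The study concerned cell migration, so genes of the matrix, of adhesion and of the cytoskeleton were described by the same lists. Their counts are read beside 32.9% of all genes higher and 34% lower. Of 28 matrix proteases, inhibitors and hyaluronan genes, 13 rose and 11 fell. MMP1, a collagenase, was at 93.5, 97.1 and 96.7 CPM in N-Omt and at 346 to 438 (median 373) CPM in the reference libraries (-2.01 ± 0.045, adjusted p = 9.02e-24). MMP10 fell from 2.51 to 5.4 (median 3.39) CPM to 0.845, 0.866 and 0.79 CPM (-2.15 ± 0.17), and CEMIP, which degrades hyaluronan, from 24.1 to 46.9 (median 33.4) CPM to 15.9, 14.6 and 13.8 CPM (-1.18 ± 0.067). The urokinase PLAU was lower (-0.56 ± 0.048) and its receptor PLAUR higher (0.59 ± 0.048). TIMP3, an inhibitor of metalloproteases, rose to 326, 330.4 and 328 CPM from 112 to 136 (median 130.3) CPM (1.38 ± 0.034, adjusted p = 3.55e-23), and TIMP1 by 0.84.

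Adhesion genes moved in both directions, with 18 of 33 integrin and focal adhesion genes higher and 9 lower. COL4A1, a chain of basement membrane collagen, was at 41.6, 39.5 and 37 CPM against 13 to 23.3 (median 17.5) CPM (1.15 ± 0.064), and TLN2, which links integrins to actin, fell (-0.96 ± 0.063). In the list of cadherins and regulators of epithelial state, 9 of 15 rose and 2 fell. SNAI1, a repressor of epithelial genes, was at 8.05, 7.45 and 7.37 CPM against 0.572 to 2.18 (median 1.35) CPM (2.44 ± 0.13), and CDH1, the epithelial cadherin that it represses, was at 1.91, 1.47 and 1.05 CPM against 0.182 to 0.799 (median 0.572) CPM (1.56 ± 0.28), a level close to none. FN1 fell (-0.60), VIM rose by 0.32, and ZEB1 did not pass the test (-0.015 ± 0.043).

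Of 48 actin and SRF genes 22 rose and 13 fell, with a median of 0.080, and IQGAP3, a scaffold of dividing cells, fell to 7.83, 6.89 and 7.79 CPM from 23.7 to 39.3 (median 28.2) CPM (-1.97 ± 0.077). CTGF rose (0.75 ± 0.042) and ANKRD1 fell (-0.50 ± 0.038) among the 20 YAP and TEAD genes, of which 7 rose and 5 fell. A set of migration related genes that the study took from the literature gave 50 rises and 36 falls among 119 tested, with a median of 0.043. AQP3, a water and glycerol channel, rose most in it (2.20 ± 0.12). The core genes of the study were drawn from pathways that CKI affected in these cells, so their direction is not independent evidence. Of the 13 tested, 2 rose and 8 fell, where 32.9% and 34% of all genes did so. Against N-Mac 4 rose and 5 fell, against N-Nme 1 and 9, and against N-Tri 1 and 8. In all comparisons 1 was higher and 2 were lower. AKT1, a kinase of growth factor signalling, was at 124, 106 and 107 CPM against 128 to 158 (median 144) CPM (-0.38 ± 0.054). CTNNB1, CCND1 and AKT2 did not pass the test (-0.082 ± 0.037, -0.016 ± 0.037 and 0.080 ± 0.049), and JAK2, APC and PIK3CA passed with log2 fold changes of -0.29, -0.14 and 0.12. Of these small changes, those of PIK3CA (0.10 to 0.14) and APC (-0.14 to -0.11) lost the call when any single N-Omt library was left out, and that of JAK2 without N-Omt replicate 1 (-0.22) or 2 (-0.23).

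**Figure D4:**
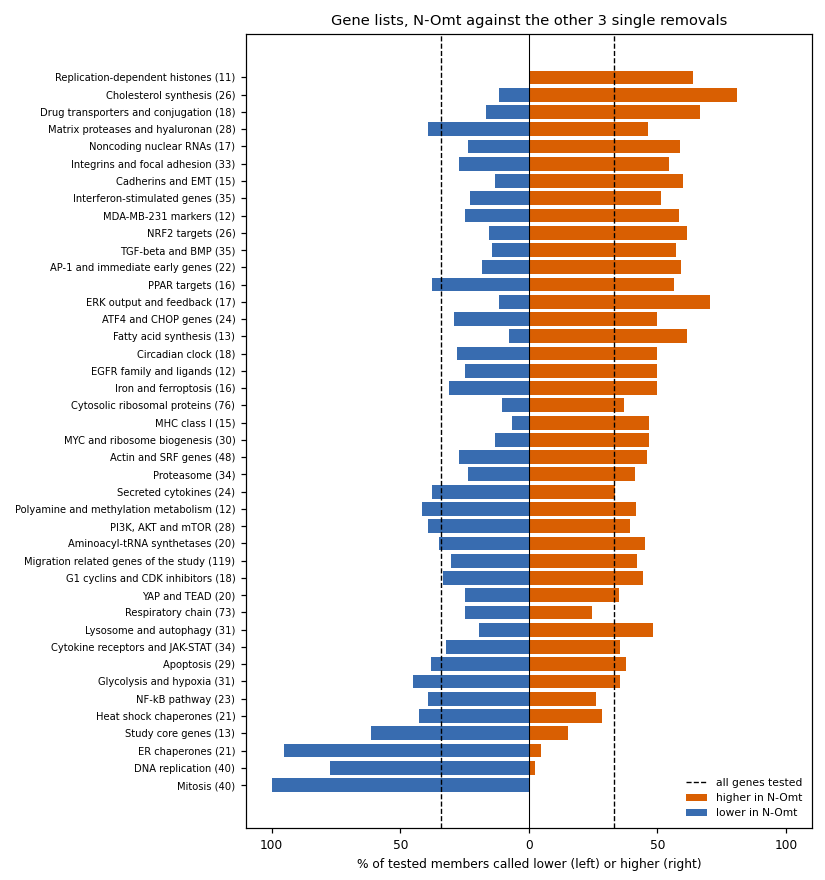
Share of the tested members of each list with at least 10 tested genes (numbers in brackets) that were called lower (left) or higher (right) in N-Omt, ordered by their median log2 fold change, with dashed lines at the shares of all genes tested, 34% lower and 32.9% higher. Mitosis, endoplasmic reticulum chaperones and DNA replication stand out to the left, and cholesterol synthesis to the right.

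The remaining lists held members that moved each way, as did all genes tested, with 32.9% higher and 34% lower. Of 29 apoptosis genes 11 rose and 11 fell, among them BIRC5, the survivin gene that is also expressed in mitosis (-2.05 ± 0.092). Glycolysis and hypoxia gave 11 rises and 14 falls of 31, with CA9 and BNIP3 lower (-0.80 and -0.71). Ribosomal proteins gave 28 and 8 of 76, MYC and ribosome biogenesis 14 and 4 of 30, and the respiratory chain 18 and 18 of 73. Among the lysosome and autophagy genes 15 of 31 rose and 6 fell, with CTSL, a cathepsin, at 459, 478 and 489 CPM against 198 to 235 (median 213) CPM (1.13 ± 0.042). Drug transporters and conjugating enzymes gave 12 rises and 3 falls of 18, including ABCG2 (1.01 ± 0.081), an efflux pump. Of 17 noncoding nuclear RNAs 10 rose and 4 fell, with SNHG3, a host of small nucleolar RNAs, at 183, 184 and 179 CPM against 46.3 to 78.6 (median 55.9) CPM (1.62 ± 0.043).

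Further lists are given by their rises and falls alone, beside 32.9% higher and 34% lower over all genes tested. Iron and ferroptosis had 8 and 5 of 16, aminoacyl-tRNA synthetases 9 and 7 of 20, the proteasome 14 and 8 of 34, the circadian clock 9 and 5 of 18. PI3K, AKT and mTOR genes had 11 and 11 of 28, polyamine and methylation metabolism 5 and 5 of 12, and the EGFR family with its ligands 6 and 3 of 12. IGFBP4, a binding protein of insulin-like growth factors in the PI3K list, was at 406, 399 and 405 CPM against 132 to 196 (median 165) CPM (1.31 ± 0.034). Among the cell type markers, 7 rose and 3 fell of 12 for the line itself, 6 and 1 of 8 for luminal breast cells, 5 and 0 of 7 for fibroblasts, and the only blood cell marker tested, CD14, rose to a mean of 3.34 CPM.

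Whole CKI and untreated cells of the same batch place N-Omt in the study. These values come from a fit of all 18 libraries of batch 2, in which 15115 genes were tested, and whole CKI was not taken apart and rebuilt as the mixtures were. N-Omt differed from CKI in 5611 genes that were higher (37.1%) and 5927 that were lower (39.2%), and from untreated cells in 5802 (38.4%) and 6025 (39.9%). All 40 mitosis genes were lower in N-Omt than with CKI, with a median log2 fold change of -2.58, and all 40 were lower than in untreated cells (-3.85). For DNA replication both numbers were 40 and 40 of 40, with medians of -1.99 and -2.40, and the MCM genes that did not pass the test against the mixtures were below CKI. Over the 15115 genes, N-Mac had 5306 higher and 5179 lower than CKI, N-Nme 5416 and 5398, and N-Tri 5208 and 5581. In mitosis and replication genes these other single removals also lay below CKI. In N-Mac, N-Nme and N-Tri 40, 38 and 40 mitosis genes were lower, with smaller medians of -1.05, -0.66 and -1.10. Replication genes lower than with CKI numbered 40, 39 and 39 in the same order. CDK1 was at 141 ± 15.6 CPM in untreated cells, 76.8 ± 3.62 with CKI and 5.96 ± 0.749 in N-Omt (SD, n = 3).

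Other groups compared with CKI otherwise than with the mixtures. Of 21 endoplasmic reticulum genes, 15 were higher in N-Omt than with CKI and 4 lower. HSPA5 was at 949 ± 12 CPM with CKI and at 3019 ± 961 CPM in untreated cells, against 3289 ± 42.4 CPM in N-Omt. Of 26 cholesterol genes 0 were higher and 19 lower than with CKI. N-Mac, N-Nme and N-Tri shared both directions. Their endoplasmic reticulum genes were higher than with CKI in 19, 21 and 19 cases and lower in 1, 0 and 1. Their cholesterol genes were lower in 24, 25 and 25 cases and higher in 0, 1 and 1. AKR1C1 was at 1.58 ± 0.314 CPM in untreated cells, 16.3 ± 0.993 with CKI and 188 ± 4.9 in N-Omt. Of the cytokines 19 were higher and 2 lower than with CKI, CXCL8 by 5.04 on the log2 scale, although CXCL8 was lower than in the other mixtures. In N-Mac, N-Nme and N-Tri 18, 16 and 18 of 25 cytokines were higher than with CKI, and 0, 5 and 3 lower. For MMP1 the log2 fold change of N-Omt was -0.39 against CKI and 1.98 against untreated cells.

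Over the 540 genes that rose by at least 1 on the log2 scale against the mixtures, 410 were also called higher in N-Omt than with CKI and 44 lower. Over the 667 that fell by at least 1, 545 were lower than with CKI and 28 higher, and 538 were lower than in untreated cells. The same N-Omt libraries selected these genes and entered these comparisons, so part of this agreement is built in. Across 14803 genes, the log2 fold change of N-Omt against the mixtures and that of CKI against untreated cells, which share no libraries, had a Pearson correlation of 0.177 and a slope of 0.142. Genes are not independent replicates, so this is a description.

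Batch 1 holds a related mixture, N-OmtOspc (labelled N_2), from which oxymatrine and oxysophocarpine were both removed, with 3 libraries at 48 h. It was compared, in a comparison added after seeing the data, with the CKI libraries of that batch, which shares no library with those above and includes the loss of oxysophocarpine and the rebuilding of the mixture. Of 15513 genes tested, 5587 were higher in N-OmtOspc (36%) and 5759 lower (37.1%). Of the 40 mitosis genes 38 were lower and 1 higher, with a median log2 fold change of -1.44, and of the 40 replication genes 36 were lower and none higher (-1.71). CDK1 was at 79.7 ± 5.46 CPM with CKI and 13.1 ± 2.17 CPM in N-OmtOspc (SD, n = 3), and CDKN1A changed by 1.86 on the log2 scale.

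Other groups of that comparison were mixed. Of the endoplasmic reticulum genes 12 were lower and 8 higher in N-OmtOspc than with CKI, and of the cholesterol genes 17 were lower and 4 higher. All of the 14 histones called were higher. Among the leading genes, AKR1C1 changed by 2.78, IL1B by 2.86, KRT81 by 2.48 and MKI67 by -3.61, and the remaining ones are not given for this comparison. MCM10, of the replication list, changed by -3.42. Across 14627 genes tested in both, the log2 fold change of N-Omt against the other single removals and that of N-OmtOspc against CKI had a Pearson correlation of 0.663 and a slope of 0.378, again over genes that are not independent replicates.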

How the data were processed

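RNA from MDA-MB-231 cells was selected with oligo(dT) beads and sequenced in paired-end reads. The authors deposited raw counts per gene, with reads trimmed (Trim Galore 0.3.7), aligned to hg19 (STAR 2.5.3a) and counted (featureCounts, Subread 1.5.2) per the labels. The labels call the libraries strand-specific, and the strand setting of the counting was not given in the sources used here. In the count table, 1 column matched no sample and was not used.

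The 12 single-removal libraries were fitted in edgeR 4.0.16 (R 4.3.3), with filterByExpr, TMM scaling, 1 term per group and the quasi-likelihood test. N-Omt was compared with the mean of the 3 reference groups and with each apart, at an adjusted p under 0.05 over all genes tested. CKI and untreated cells entered a fit of 18 libraries, and batch 1 was fitted apart. SE is the log2 fold change over the root of its F. Total counts per library limit precision for low genes.

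Libraries were grouped by their labels, while the comparison, and with it the members, and the 48 gene lists were chosen with earlier results of these data known. Same-numbered libraries of N-Omt and N-Nme deviated together in all 3 pairs (correlations of 0.226 to 0.273), which the labels do not explain. The fits reported above did not pair them, and a replicate block entered only among the alternatives. Genes were named as the 12 largest rises and falls, up to 4 called members per list, genes that define a list and the core genes of the study, and 71 further genes in the text were chosen after their values were seen. Alternatives were other scalings, filters, DESeq2 1.42.0, a replicate block and left-out libraries or groups. Some items are not reported here, in text or figures. Promoter windows came from RefSeq (GRCh38.p14).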

Additional observations from a re-analysis of the deposited data

Results flagged for a closer look

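The reference groups disagreed in direction for 236 genes, which were called higher in N-Omt than 1 of N-Mac, N-Nme and N-Tri and lower than another. These were flagged because the effect of the same contrast differed between groups, with the difference itself tested among the reference groups. The comparisons share the N-Omt libraries. IL6, an inflammatory cytokine, had log2 fold changes of -0.79 against N-Mac, 1.47 against N-Nme and 0.70 against N-Tri, the smaller of the opposite sizes being 0.786, and an adjusted p of 3.02e-22 among the reference groups (edgeR's quasi-likelihood test). DEPP1, a gene induced by FOXO factors, had -0.65 against N-Mac and 0.74 against N-Nme, with a smaller size of 0.65 and an adjusted p among the reference groups of 2.84e-11 (edgeR). CSF2, the growth factor GM-CSF, had -0.55 against N-Mac and 1.22 against N-Nme, with a smaller size of 0.555 and an adjusted p among the reference groups of 5.66e-16 (edgeR).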

How the results depend on the processing

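The number of DE genes against the mean of the other mixtures ranged from 8175, with the 9 reference libraries as 1 group, to 10276 without a filter on low counts, and DESeq2 gave 9509. With a log2 fold change of 1 or more required as well, it was 1207, and against N-Mac, N-Nme and N-Tri 1208, 1605 and 1117. Leaving out each library in turn gave 9065 to 10159, and 8003 to 9131 against N-Mac, 8857 to 9660 against N-Nme, 8105 to 9295 against N-Tri and 11086 to 11187 against CKI. The correlation with the CKI effect across genes was 0.174 to 0.176 and the slope on the CKI effect across genes 0.141 to 0.145 without single N-Omt libraries.

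Same-numbered libraries correlated over 0.1 in 7 of 18 pairs (-0.18 to 0.313). This held in all 3 pairs only for N-Omt with N-Nme. It also held for N-Omt with N-Mac at replicates 1 and 3 (0.25 and 0.22). At replicate 1 it held for N-Mac with N-Nme (0.313) and for N-Nme with N-Tri (0.138). With the replicate block the counts were 10075, 8940 against N-Mac, 9710 against N-Nme, 9110 against N-Tri and 11581 against CKI. Against N-Nme the block kept 9512 calls with their direction, lost 32 and added 198.

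Of the named genes, 4 reversed when a reference group was left out. The DCN log2 fold change was -0.00316 without N-Tri, the DEPP1 log2 fold change -0.29 and the IL6 log2 fold change -0.0414 without N-Nme, and the SLC7A11 log2 fold change -0.17 without N-Mac. The causes of these changes were not tested, except that requiring a fold change calls fewer genes by construction. Low counts limit genes such as E2F2, CDH1 and DCN.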
